A study of Mus musculus with 6 samples.

Results

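The enzymes described here break down amino acids in the renal cortex. They comprise 54 genes, which were taken by name from the gene names on the array because they act in the catabolism of branched-chain, aromatic and other amino acids, in the handling of glutamine, glycine, proline and arginine, or in the synthesis of creatine. All 54 were among the 27206 gene names on the array, with 106 probes, and each had at least 1 probe bright enough to be tested. The probe used was well above background on all 6 arrays for 53 of them, and Bcat1 passed the filter only through labelled db/m. Renal cortex was taken from male mice aged 16 weeks, and each group holds 3 mice with 1 array each. The db/db genotype lacks a working leptin receptor on the C57BLKS/J background and leads to obesity and type 2 diabetes, whereas db/m mice carry a working copy and stay lean. By their labels the groups are db/m and db/db, and the protocol mentions 8 weeks of treatment with Huangqi decoction (HQD), a herbal extract. The paper's methods and the design text instead describe db/db mice with and without HQD, so that the first group differs between the sources in genotype and in treatment. It is called labelled db/m here. A difference is always its value minus that of labelled db/db, and the dose behind these arrays is not given in the sources used here. Nothing in the labels says whether mice of a group shared a litter or a cage. The pieces of cortex held all their cell types, so that fewer cells of a type and less RNA per cell cannot be told apart. Replicates 1 and 3 labelled db/m stood apart from the other 4 arrays by high signals of inner medulla genes, and the counts are given with and without them.

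Proximal tubule cells reabsorb nearly all filtered amino acids and oxidise part of them in mitochondria, which feeds the citric acid cycle, ammonia production and glucose synthesis. Most pathways begin with the transfer or release of the amino group by enzymes that use pyridoxal phosphate, followed by oxidation of the carbon skeleton by dehydrogenases that use FAD or NAD. The kidney also makes arginine from citrulline and the creatine precursor guanidinoacetate.

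On the arrays labelled db/m, most of these enzymes lay below their level on the arrays labelled db/db, and none passed an adjusted p of 0.05. The values are log2 signals relative to the 75th percentile of each array, and the brightest tested probe stands for a gene. Of the 54 enzymes, 49 were lower and 5 were higher by their group means, and the median difference was -0.32, beside -0.037 over all 16356 genes tested. By limma, 17 enzymes were lower at an unadjusted p under 0.05, a share of 31.5%, and 9.51% of all genes met the same rule. None was higher at that threshold, which 6.07% of all genes were. After Benjamini-Hochberg adjustment 0 of 54 enzymes passed, as did 0 of all genes (0% called), and the smallest adjusted p among the enzymes was 0.240. With equal variances tested probe by probe and no sharing between probes (the methods' t-test), 13 enzymes were lower at an unadjusted p under 0.05, beside 10.5% of all genes, and 0 passed after adjustment. With 3 arrays per group, an exact permutation test of a single gene cannot give a p below 0.1. The groups did not overlap for 20 enzymes, all lower in labelled db/m. That is 37.0% of the enzymes beside 15.8% of all genes, while 7.1% of all genes did not overlap in the higher direction and none of the enzymes did.

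Bright probes as a class lay lower in labelled db/m. In the brightest quartile of genes the median difference was -0.14 and 78.2% of genes were lower, and 42 of the 54 enzymes belonged to that quartile. Of these 42, 15 were lower at an unadjusted p under 0.05 and 18 did not overlap, beside 13.5% and 24.9% of all genes of the quartile. The higher direction was rare among bright genes. Of the 4089 genes of the quartile, 78 were higher at an unadjusted p under 0.05 (limma) and 133 were higher without overlap.

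**Figure D1:**
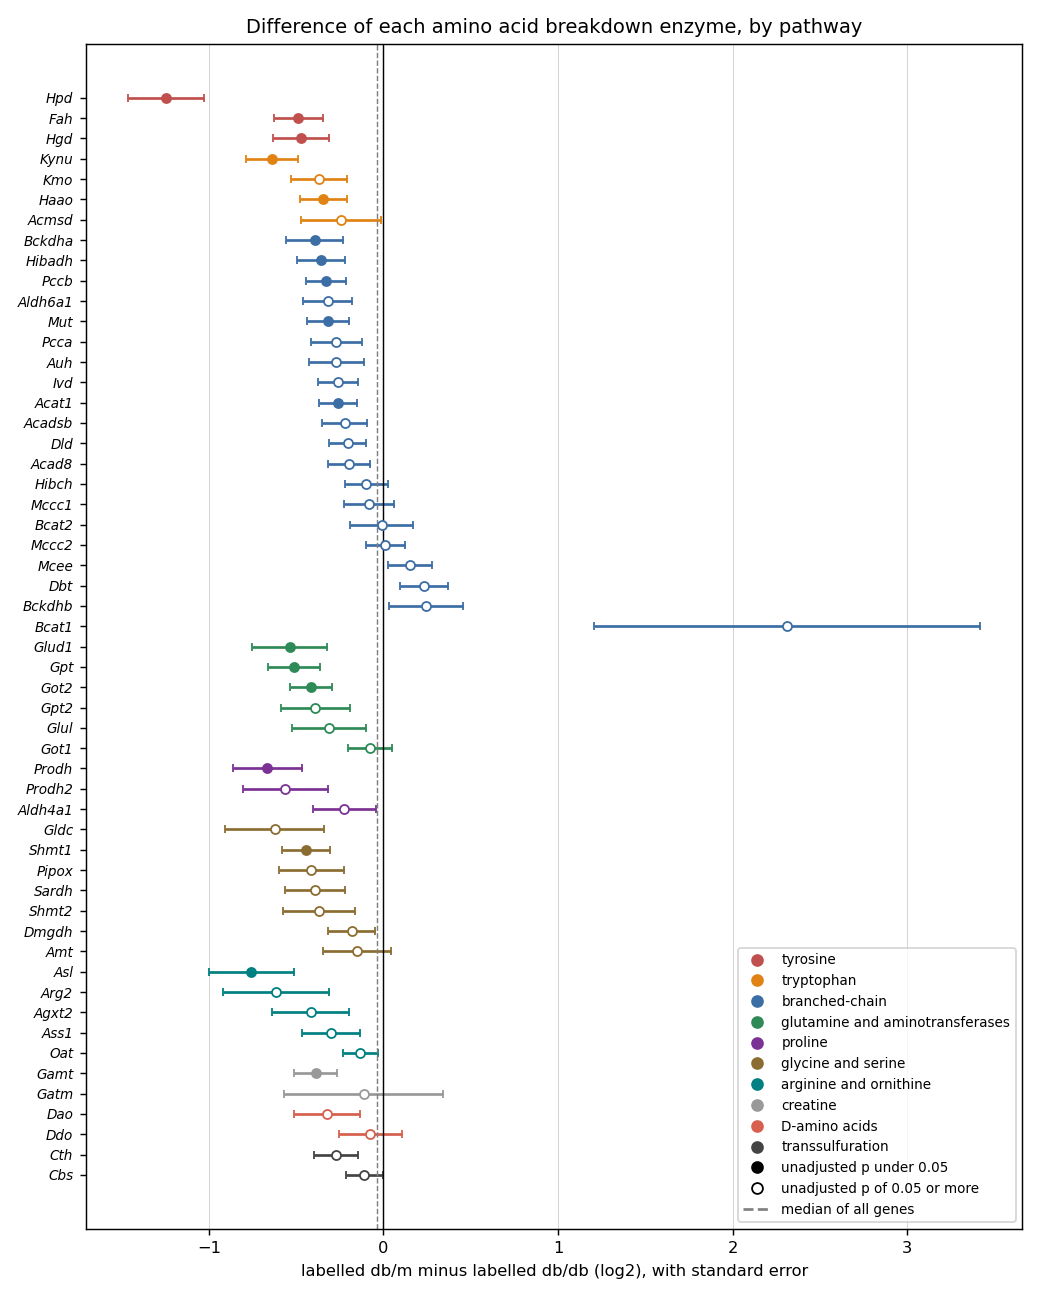
Difference of each of the 54 enzymes, labelled db/m minus labelled db/db on the log2 scale, with its standard error from limma (3 arrays per group). Filled points have an unadjusted p under 0.05, the dashed line is the median of all genes at -0.037, and 49 of the 54 points lie below 0.

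The arrays labelled db/m were not alike. The median of the enzymes, each taken as its deviation from its own mean over the 6 arrays, was -0.32, 0.08 and -0.23 on replicates 1, 2 and 3 labelled db/m, and 0.10, 0.22 and 0.10 in labelled db/db. Replicates 1 and 3 labelled db/m therefore lay below the other 4 arrays, and replicate 2 lay close to the arrays labelled db/db. Replicate 2 was the highest of its group for 44 of the 54 enzymes. Against the mean of the arrays labelled db/db, the median of the enzymes was -0.46 for replicates 1 and 3 and -0.075 for replicate 2. The same medians were -0.053 and -0.021 over all genes, and -0.19 and -0.041 over the brightest quartile. The array medians of that quartile were split in the same way, at -0.12, 0.03 and -0.11 in labelled db/m and 0.03, 0.16 and 0.02 in labelled db/db. Both replicates 1 and 3 were below every array labelled db/db for 40 enzymes, which 30.1% of all genes were, and replicate 2 was for 25 enzymes, which 32.5% of all genes were. When replicates 1 and 3 were left out, an alternative chosen after the data were seen, 2 enzymes were lower at an unadjusted p under 0.05 (limma, 1 array against 3), which is 3.7% beside 2.05% of all genes, and the median difference was -0.075. These were Hpd and Arg2. The spread of a gene in that fit comes from the arrays labelled db/db alone, and the lone array is assumed to vary like them.

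Of the enzymes that carry tyrosine from its keto acid to fumarate and acetoacetate, 3 are among the 54. All 3 were lower, and none overlapped. Gstz1 of the same route is counted with the other amino acid enzymes. Hpd, the dioxygenase that turns 4-hydroxyphenylpyruvate into homogentisate, had the largest negative difference of the 54. It is represented by a single probe at chr5:123622237-123624360 on the minus strand (mm9, the build of the scanner files), a span longer than the probe because the probe crosses an intron. Its first 30 of 60 bases are shown, since the result rests on this sequence alone:
Hpd probe: ggagctgcatatcctagtcgactatgacga
The signal of Hpd was 4.70, 4.50 and 4.20 in labelled db/m and 6.10, 5.64 and 5.39 in labelled db/db. All 3 arrays labelled db/m lay below all 3 labelled db/db, replicate 2 included. The difference was -1.24 ± 0.22 (SE), which is 0.422 times the linear signal, with an unadjusted p of 0.00081 and an adjusted p of 0.240 by limma. Without replicates 1 and 3 labelled db/m it was -1.21. Within the slide shared by replicate 1 labelled db/m and replicate 3 labelled db/db, it was -0.69.

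Hgd, which opens the ring of homogentisate, read 3.86, 4.29 and 3.85 in labelled db/m and 4.31, 4.62 and 4.49 in labelled db/db. Replicate 2 labelled db/m was 0.017 below the lowest array labelled db/db. Fah, the last enzyme of the pathway, read 4.81, 5.13 and 4.76 against 5.49, 5.42 and 5.25. The differences were -0.47 ± 0.16 for Hgd and -0.49 ± 0.14 for Fah (SE), with adjusted p of 0.247 and 0.240 by limma. A second, dimmer probe of Hgd gave -0.25 and overlapped.

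The kynurenine pathway breaks down tryptophan on the way to NAD or to acetyl-CoA, and its 4 enzymes measured here were all lower. Kynu, the kynureninase that releases alanine from kynurenine, had a probe at chr2:43538117-43538176 on the plus strand (mm9), whose first 30 bases are shown because a second probe gave the same direction:
Kynu probe: gtcattgcttttttgatgccactactagta
Kynu read 1.29, 1.63 and 1.35 in labelled db/m and 1.92, 2.26 and 2.01 in labelled db/db. The groups did not overlap at this probe or at the second one. The differences were -0.64 ± 0.15 (SE) at the first probe and -0.79 at the second, each with an adjusted p of 0.240 by limma. Haao, which opens the ring of 3-hydroxyanthranilate, read 4.91, 5.27 and 4.91 against 5.43, 5.39 and 5.30. Its groups were separated by 0.032 only, and the difference was -0.34 ± 0.14 (SE; limma adjusted p 0.270). Kmo, the kynurenine hydroxylase upstream of Kynu, had a difference of -0.37 at the brightest probe, where the groups overlapped. At its second probe it had -0.39 with an unadjusted p of 0.020. Acmsd, which diverts the pathway from NAD to oxidation, had -0.24, with replicate 2 labelled db/m above every array labelled db/db.

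**Figure D2:**
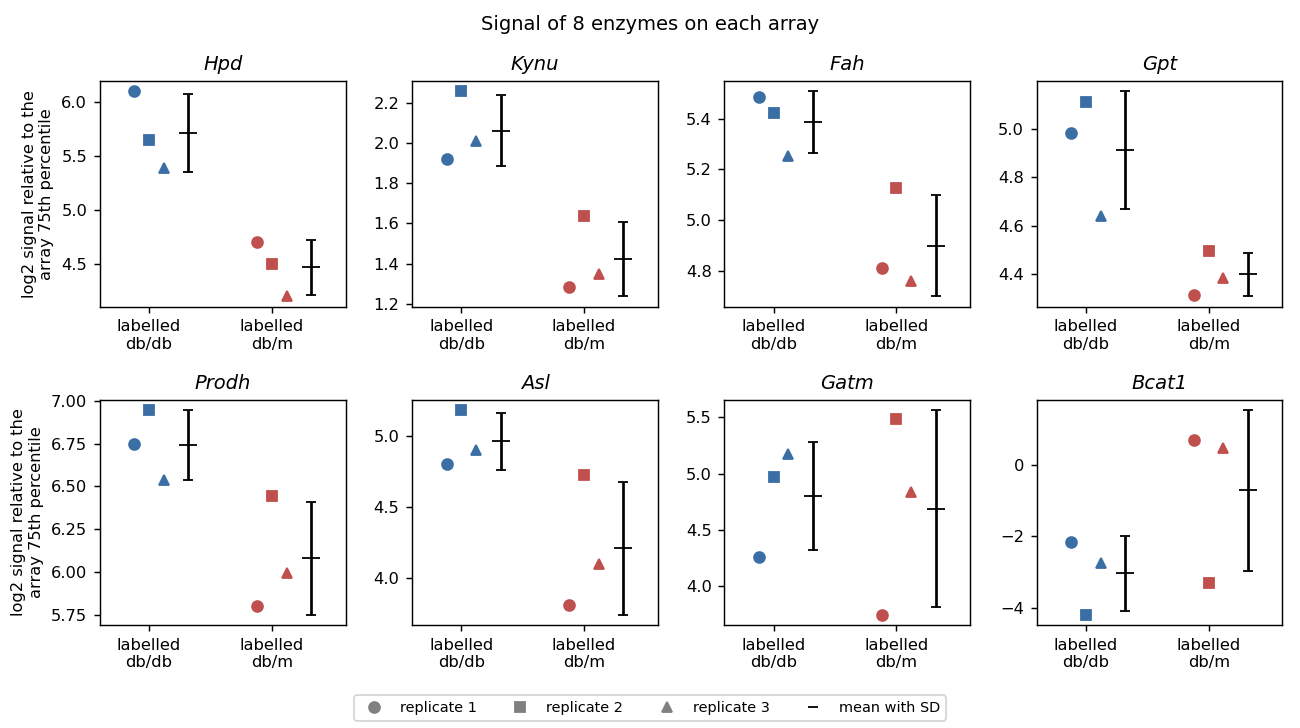
Log2 signal relative to the 75th percentile of the array for 8 enzymes on each of the 6 arrays, with the mean and SD of each group (n = 3). The groups do not overlap for Hpd, Kynu, Fah, Gpt, Prodh and Asl, whereas Gatm and Bcat1 differ more within labelled db/m than between the groups.

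The breakdown of leucine, isoleucine and valine holds 20 of the enzymes. Of these, 15 were lower and 5 were higher by group means, 5 were lower at an unadjusted p under 0.05, and the median difference was -0.21. The first step is the transfer of the amino group, by Bcat1 in the cytosol or Bcat2 in mitochondria. Bcat1 had a higher mean in labelled db/m. Its probe lies at chr6:144947709-144947768 on the minus strand (mm9), and its first 30 bases are given because the values rest on this probe:
Bcat1 probe: attgccctggaaagatgaaatactaaccac
Bcat1 read 0.70, -3.31 and 0.46 in labelled db/m and -2.16, -4.18 and -2.75 in labelled db/db. Replicates 1 and 3 labelled db/m were high, replicate 2 lay among the arrays labelled db/db, and the probe was well above background on 2 of the 3 arrays labelled db/db. The difference of 2.31 ± 1.11 (SE) is given as a description, since the probe was tested only because it was bright enough in labelled db/m and its level in labelled db/db was partly not above background. Another 3 probes of Bcat1 were too dim to be tested. Bcat2 had a difference of -0.0095, with 2.73, 2.17 and 2.33 against 2.63, 2.25 and 2.37. Replicate 2 labelled db/m was again the lowest of its group, at -0.25 from the mean of labelled db/db, and the other pair was at 0.11, so that the arrays had a similar split of a much smaller size.

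The branched-chain keto acid dehydrogenase commits the keto acids to oxidation, and its subunits did not go the same way. Bckdha, the alpha subunit of its decarboxylase, read 5.75, 6.28 and 5.97 in labelled db/m and 6.32, 6.54 and 6.32 in labelled db/db. These did not overlap, with replicate 2 labelled db/m just below the lowest array labelled db/db, and the difference was -0.39 ± 0.16 (SE; limma adjusted p 0.279). The beta subunit Bckdhb had 0.24 ± 0.21, with 5.06, 4.21 and 4.69 against 4.45, 4.35 and 4.44. Here replicate 1 labelled db/m was the highest array and replicate 2 the lowest. Dbt, the core of the complex, had 0.23 and Dld, the subunit it shares with pyruvate dehydrogenase, had -0.21, with adjusted p of 0.388 and 0.337 by limma. The groups did not overlap for Dld.

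Further down the valine, isoleucine and propionate branches, 4 mitochondrial enzymes were lower without overlap at an unadjusted p under 0.05. Hibadh, which oxidises the valine intermediate 3-hydroxyisobutyrate, read 5.93, 6.26 and 5.97 against 6.42, 6.55 and 6.27, a difference of -0.36 ± 0.14 (SE; limma adjusted p 0.269). Replicate 2 labelled db/m was only just below the lowest array labelled db/db. Pccb, the beta subunit of propionyl-CoA carboxylase, read 2.62, 2.72 and 2.47 against 2.86, 2.92 and 3.01, which gave -0.33 ± 0.11 (SE; limma adjusted p 0.248). Its partner Pcca had -0.27 and overlapped. Mut, the cobalamin-dependent methylmalonyl-CoA mutase, read 4.65, 4.84 and 4.53 against 4.97, 5.05 and 4.95, with a difference of -0.32 ± 0.12 (SE; limma adjusted p 0.261). A second Mut probe, nearer the 3′ end, had -0.056. Acat1, the thiolase that ends isoleucine breakdown and acts on ketone bodies, read 4.73, 4.86 and 4.67 against 4.96, 5.10 and 4.98. All of its arrays labelled db/m were lower, and the difference was -0.26 ± 0.11 (SE; limma adjusted p 0.282).

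The remaining branched-chain enzymes did not pass the unadjusted threshold at their brightest probe. Aldh6a1, the dehydrogenase of methylmalonate semialdehyde, had -0.32 and Ivd, the isovaleryl-CoA dehydrogenase of leucine breakdown, had -0.26, both without overlap. Auh, Acadsb, Acad8, Hibch and Mccc1 had differences from -0.27 to -0.081, and Mcee, the epimerase next to Mut, had 0.15. Mccc2, the partner of Mccc1 in methylcrotonyl-CoA carboxylase, had 0.010, with 2.58, 2.38 and 2.37 against 2.45, 2.36 and 2.48.

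All 6 enzymes of glutamine, glutamate and alanine were lower, 3 of them at an unadjusted p under 0.05, and the median difference was -0.40. Glud1, the glutamate dehydrogenase that frees ammonium in mitochondria, read 5.75, 6.53 and 6.05 in labelled db/m and 6.56, 6.87 and 6.51 in labelled db/db. Replicate 2 labelled db/m was above the lowest array labelled db/db, so that the groups overlapped. The difference was -0.54 ± 0.22 (SE; limma adjusted p 0.274). Gpt, the cytosolic alanine aminotransferase, read 4.31, 4.49 and 4.39 against 4.98, 5.11 and 4.64, which gave -0.51 ± 0.15 (SE; limma adjusted p 0.240). Here replicate 2 labelled db/m lay with its group, at -0.42 from the mean of labelled db/db. A second Gpt probe had -0.35 and did not overlap, and the mitochondrial Gpt2 had -0.39 with overlap.

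Got2, the mitochondrial aspartate aminotransferase, read 5.02, 5.30 and 5.07 in labelled db/m and 5.62, 5.55 and 5.45 in labelled db/db. The groups did not overlap, and the difference was -0.41 ± 0.12 (SE; limma adjusted p 0.240). The cytosolic Got1 had -0.076 at its brightest probe, with 5.01, 4.93 and 4.83 against 4.82, 5.13 and 5.06. Its other probes, which lie nearer the 5′ end, had -0.40 and -0.41 with unadjusted p of 0.017 and 0.012. The last of these probes overlap each other in the transcript. The first 30 bases of each Got1 probe are shown from the brightest to the dimmest, at chr19:43574278-43574337, chr19:43579114-43579173 and chr19:43579124-43581417 on the minus strand (mm9), with the bases that the overlapping probes share within the part shown in capitals (20 of the 50 they share in all):
Got1 probe A_55_P1958434: cggtatttgctcttgtgatatgtggcacat
Got1 probe A_66_P120058: GAGAGTGGGGAATCTGACCGtggtcggaaa
Got1 probe A_55_P2740265: atgcagatgaGAGAGTGGGGAATCTGACCG
The overlapping probes thus gave almost the same difference, and the probe at the other end of the transcript gave another.

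Glul, the glutamine synthetase that fixes ammonium, showed the same order along its transcript. Its 3 probes lie at chr1:155756765-155756824, chr1:155755109-155755168 and chr1:155751765-155751824 on the plus strand (mm9), so that the last is nearest the 5′ end. The first 30 bases of each are shown in that order:
Glul probe A_55_P2142146: cgcttataaatcaacctaacatttataaga
Glul probe A_66_P134479: tccaacatcaacgacttttctgccggtgtt
Glul probe A_52_P143866: ttccgcaaagaccccaacaagctggtgcta
The probe nearest the 3′ end read 4.77, 5.57 and 5.05 in labelled db/m and 5.29, 5.53 and 5.52 in labelled db/db, a difference of -0.31 with overlap. The middle probe read 3.52, 4.18 and 3.60 against 4.50, 4.52 and 4.39, a difference of -0.70 without overlap. The probe nearest the 5′ end read 0.76, 1.27 and 0.79 against 1.74, 1.85 and 1.65, a difference of -0.80 without overlap. The unadjusted p was 0.186, 0.0076 and 0.0019 in that order, so that the choice of the brightest probe decided whether Glul met the threshold.

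This order along the transcript was common among the enzymes. For 20 of them, at least 2 tested probes belonged to the same transcript, and for 15 of these (75%) the probe nearest the 5′ end had the lower difference. The median was -0.39 at the 5′ probes and -0.26 at the 3′ probes, and the 5′ probe was the dimmer for 19 of the 20. Over all 4214 such transcripts, 63.4% had the lower difference at the 5′ probe, with medians of -0.14 and -0.074. The signal of the 5′ probe over the 3′ probe of the enzymes, as a median deviation from its mean over the arrays, was -0.01, -0.12 and -0.10 in labelled db/m and 0.19, 0.09 and 0.04 in labelled db/db. Over all 4214 transcripts it had the same sign on each array, at -0.014, -0.033 and -0.067 in labelled db/m and 0.068, 0.018 and 0.009 in labelled db/db. The labels and the paper state that RNA below an integrity number of 7 was not used, without a value for each sample, and the part of RNA integrity in the differences was not tested.

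**Figure D3:**
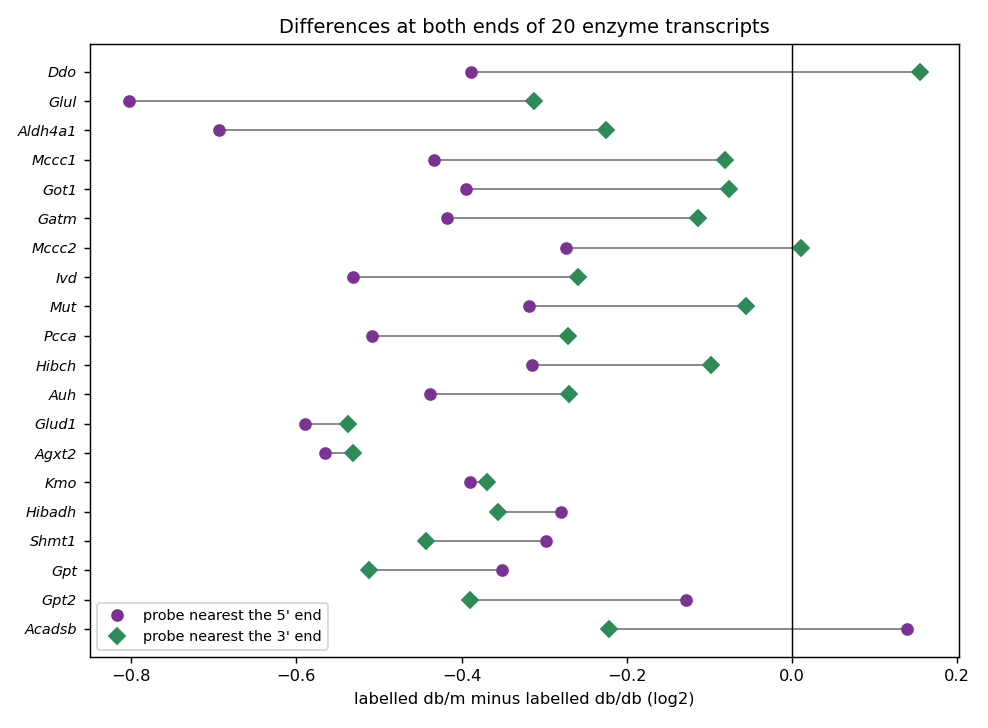
Difference labelled db/m minus labelled db/db (log2) at the tested probe nearest the 5′ end and at the one nearest the 3′ end of the same transcript, for the 20 enzymes with at least 2 such probes. The 5′ probe lies to the left of the 3′ probe for 15 of the 20.

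For 7 enzymes the tested probes had different signs and at least 1 had an unadjusted p under 0.05. Auh, a hydratase of leucine breakdown, had -0.27, -0.44 and -0.32 at 3 probes, and its dimmest probe had 0.27 (limma unadjusted p 0.048). Glud1 had -0.54 and -0.59 beside 0.089 at a dim probe. Ivd had -0.26, 0.17 and -0.53, and Mccc1 had -0.081, -0.43 and 0.14. Pcca had -0.27, 0.043 and -0.51, and Hibch had -0.10, -0.31 and 0.55. The Hibch probe at 0.55 was well above background on only 2 arrays labelled db/db. It was tested only through labelled db/m, so its sign is given as a description. Ddo, which oxidises D-aspartate, had -0.075, 0.15 and -0.39. At each of these genes the probes with an unadjusted p under 0.05 were lower, except at Auh, where 1 was higher and 2 were lower.

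Proline is opened by Prodh and hydroxyproline by Prodh2, and Aldh4a1 oxidises the products of both to glutamate and its hydroxylated form. All 3 were lower, with a median of -0.56. Prodh read 5.80, 6.44 and 5.99 in labelled db/m and 6.75, 6.95 and 6.54 in labelled db/db. It did not overlap, with replicate 2 labelled db/m nearest to the other group, and the difference was -0.67 ± 0.20 (SE; limma adjusted p 0.240). Prodh2 had -0.56 ± 0.24, with 3.35, 4.33 and 3.68 against 4.29, 4.36 and 4.39. Replicates 1 and 3 labelled db/m were low there, and replicate 2 was within the other group. Aldh4a1 had -0.23 at its bright probe and -0.69 at its dim one, where the unadjusted p was 0.0049.

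The glycine and serine enzymes were all lower (7 of 7, median -0.39), and 1 met the unadjusted threshold. Shmt1, the cytosolic hydroxymethyltransferase that links serine, glycine and folate, read 0.58, 0.97 and 0.60 in labelled db/m and 1.11, 1.22 and 1.15 in labelled db/db. No array overlapped, and the difference was -0.44 ± 0.14 (SE; limma adjusted p 0.240). The mitochondrial Shmt2 had -0.37 with overlap. Gldc, the decarboxylase of the glycine cleavage system, had the largest difference of these 7 at -0.62 ± 0.29, with 3.93, 5.06 and 4.36 against 5.14, 5.23 and 4.85. It was low on replicates 1 and 3 labelled db/m, and replicate 2 was at -0.011 from the mean of the arrays labelled db/db. Pipox, Sardh, Dmgdh and Amt, which act on pipecolate, sarcosine, dimethylglycine and glycine, had differences from -0.41 to -0.15 and all overlapped.

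Arginine is made in the proximal tubule by Ass1 and Asl and is broken down by Arg2 and Oat. Asl, which releases arginine from argininosuccinate, read 3.81, 4.72 and 4.09 in labelled db/m and 4.80, 5.19 and 4.90 in labelled db/db. Replicate 2 labelled db/m was 0.079 below the lowest array labelled db/db, and the difference was -0.76 ± 0.25 (SE; limma adjusted p 0.242), the second largest negative value of the 54. Without replicates 1 and 3 labelled db/m it was -0.24. Ass1, the step before it, had -0.30, with 7.93, 8.54 and 8.16 against 8.56, 8.52 and 8.46, so that replicate 2 labelled db/m was level with the other group. Arg2, the mitochondrial arginase, had -0.61 ± 0.30, and here replicates 2 and 3 were low, at -1.41 and -1.83, and replicate 1 was at -0.67 beside -0.40, -0.96 and -0.70. Oat had -0.13, and Agxt2, an aminotransferase of dimethylarginine and aminoisobutyrate, had -0.42 at its brightest probe and -0.53 and -0.57 at its others.

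The creatine pair went different ways in spread. Gamt, which methylates guanidinoacetate to creatine, read 2.96, 3.15 and 2.85 in labelled db/m and 3.39, 3.47 and 3.28 in labelled db/db, without overlap and with a difference of -0.39 ± 0.12 (SE; limma adjusted p 0.240). Gatm, which makes guanidinoacetate in kidney mitochondria, read 3.74, 5.48 and 4.84 against 4.26, 4.97 and 5.17. It was lowest on replicate 1 and highest on replicate 2 of the same group, so that the difference of -0.11 ± 0.45 was far below the spread between arrays. Dao, the peroxisomal oxidase of D-amino acids, had -0.32. In the transsulfuration pathway, which turns homocysteine into cysteine, Cth had -0.27 without overlap and Cbs had -0.11 with overlap.

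The paired enzymes of the same reaction in different compartments differed in size. The cytosolic Gpt and Shmt1 and the mitochondrial Got2 met the unadjusted threshold at their brightest probe, and the mitochondrial Gpt2 and Shmt2 and the cytosolic Got1 did not. The difference between partners was not tested. By compartment, 9 of 16 cytosolic, 8 of 35 mitochondrial and 0 of 3 peroxisomal enzymes were lower at an unadjusted p under 0.05 (limma), with medians of -0.37, -0.27 and -0.32. Over all genes 9.51% were lower at that threshold, and 13.5% were in the brightest quartile. Without overlap, 10 cytosolic, 10 mitochondrial and 0 peroxisomal enzymes were lower, beside 15.8% of all genes. Whether the compartments differed was not tested. By cofactor, 13 of 14 enzymes that use pyridoxal phosphate, all 12 that use FAD and all 4 that use NAD were lower by their means. Of the 4 that use biotin, 3 were lower. Among all 54 enzymes the share was 90.7%, beside 78.2% of the genes of the brightest quartile.

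**Figure D4:**
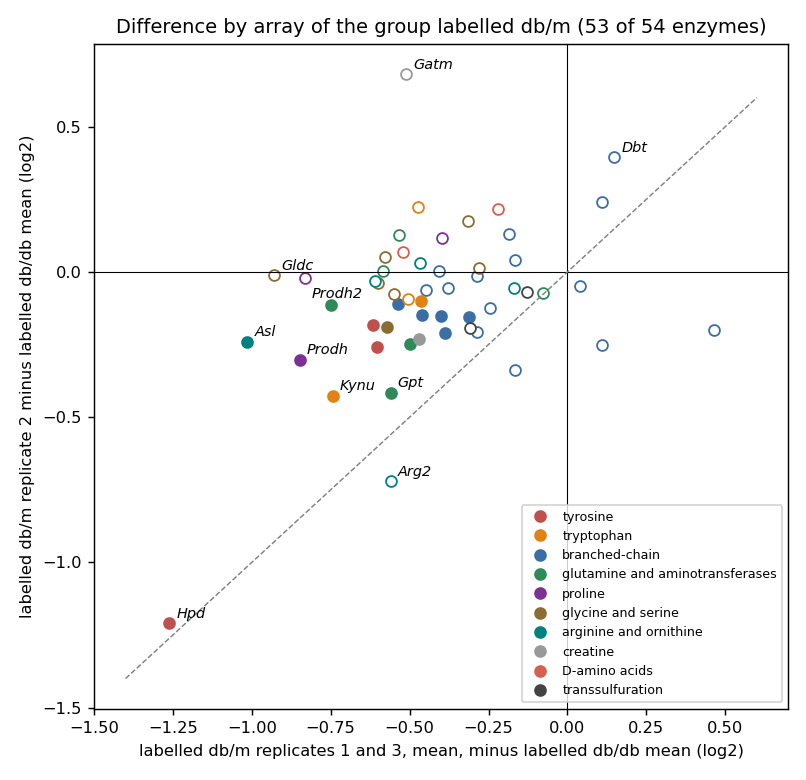
For 53 of the 54 enzymes, the difference from the mean of the arrays labelled db/db (log2) for labelled db/m replicates 1 and 3 (x axis, their mean) and for labelled db/m replicate 2 (y axis). Points on the dashed line would be equally low on both. Hpd is near it at -1.26 and -1.21, most others lie above it, and Bcat1 (3.61 and -0.28) is outside the range shown. Filled points have an unadjusted p under 0.05.

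Each enzyme was also compared with the mean of labelled db/db on replicate 2 and on replicates 1 and 3. On all 3 arrays labelled db/m, 20 enzymes were below every array labelled db/db, beside 15.8% of all genes. Hpd, Kynu, Gpt and Prodh were among these 20. Hpd was at -1.21 on replicate 2 and at -1.26 on the other pair. Kynu was at -0.43 and -0.74, and Gpt was at -0.42 and -0.56. Prodh was at -0.30 and -0.85. Arg2 was at -0.72 and -0.56, but replicate 1 on its own was level with labelled db/db. Of the 17 enzymes with an unadjusted p under 0.05, the 16 other than Hpd were at -0.43 to -0.10 on replicate 2, and whether Hpd differed from them was not tested. In contrast, Gldc was at -0.011 and -0.93 and Prodh2 at -0.021 and -0.83, which is the split seen in the medians. On the slide that held 1 array of each group, the array labelled db/m was below the one labelled db/db for 46 of the 54 enzymes, with a median of -0.44. Over all genes 56.2% were below, with a median of -0.053. With the slide as a block, which rests on that pair, 6 enzymes (11.1%) were lower at an unadjusted p under 0.05, beside 5.28% of all genes, namely Agxt2, Asl, Gatm, Kynu, Prodh and Prodh2 (limma), and Hpd was not (unadjusted p 0.070).

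Markers of the proximal tubule as a whole were lowest on the same pair of arrays as the enzymes, and markers of the S3 segment were not. Of 22 proximal tubule markers, 20 were lower in labelled db/m, 4 at an unadjusted p under 0.05 (limma), with a median difference of -0.33. Of these markers 21 belonged to the brightest quartile, in which 78.2% of genes were lower and 13.5% were lower at that threshold. Over all genes 55.2% were lower, and 9.51% were lower and 6.07% higher at that threshold. The array medians of the proximal tubule markers were -0.33, 0.18 and -0.17 in labelled db/m and 0.07, 0.23 and 0.13 in labelled db/db. Replicates 1 and 3 labelled db/m were thus lowest for both the markers and the enzymes. Slc6a19, the carrier that takes up most neutral amino acids from the filtrate, had -1.01 ± 0.20 (SE; limma adjusted p 0.240), with 3.43, 4.18 and 3.72 against 4.69, 4.93 and 4.76 and no overlap. Lrp2, a receptor of the proximal brush border, had -0.27, and Aqp1 had 0.14. The 7 markers of the S3 segment, the last part of the proximal tubule, were split, with 4 higher and 3 lower and a median of 0.14. Of the higher ones, 2 had an unadjusted p under 0.05. Slc7a13 and Slc22a7 belong to both the S3 list and the proximal tubule list. The array medians of the 7 S3 markers were 0.29, 0.18 and 0.01 in labelled db/m and -0.17, -0.13 and 0.04 in labelled db/db. Of 12 markers of the thick limb and distal tubule, 9 were lower, with a median of -0.075. Their array medians were -0.12, -0.09 and -0.10 in labelled db/m and 0.06, 0.18 and 0.02 in labelled db/db, so that replicate 2 labelled db/m lay with the rest of its group there.

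The 6 genes of the inner medulla had a median difference of 1.14, and their array medians ran from -0.40 to 1.26 in labelled db/m and from -0.68 to -0.33 in labelled db/db. Replicates 1 and 3 labelled db/m were at 1.26 and 0.78. Akr1b3, the aldose reductase that makes sorbitol in the medulla, read 5.71, 2.84 and 5.35 in labelled db/m and 3.16, 3.18 and 2.91 in labelled db/db. Slc14a2, the urea carrier of the inner medullary collecting duct, read -1.35, -2.69 and -0.49 against -3.07, -3.39 and -2.84. The 2 arrays with high signals of these genes were those on which the enzymes were low and Bcat1 was high. In the list, 2 of 6 genes, Bdkrb2 and Slc6a6, were lower in labelled db/m. The collecting duct list was split, with 7 of 13 genes higher, 6 lower and a median of 0.35. At an unadjusted p under 0.05 (limma), 3 of its genes were lower and 2 higher, beside 9.51% and 6.07% of all genes. Of 12 immune genes tested, 10 were higher, with a median of 0.29. The part of segment content in the differences of the enzymes was not tested. Genes that are best known from liver were lower as well (6 of 6, median -0.55).

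**Figure D5:**
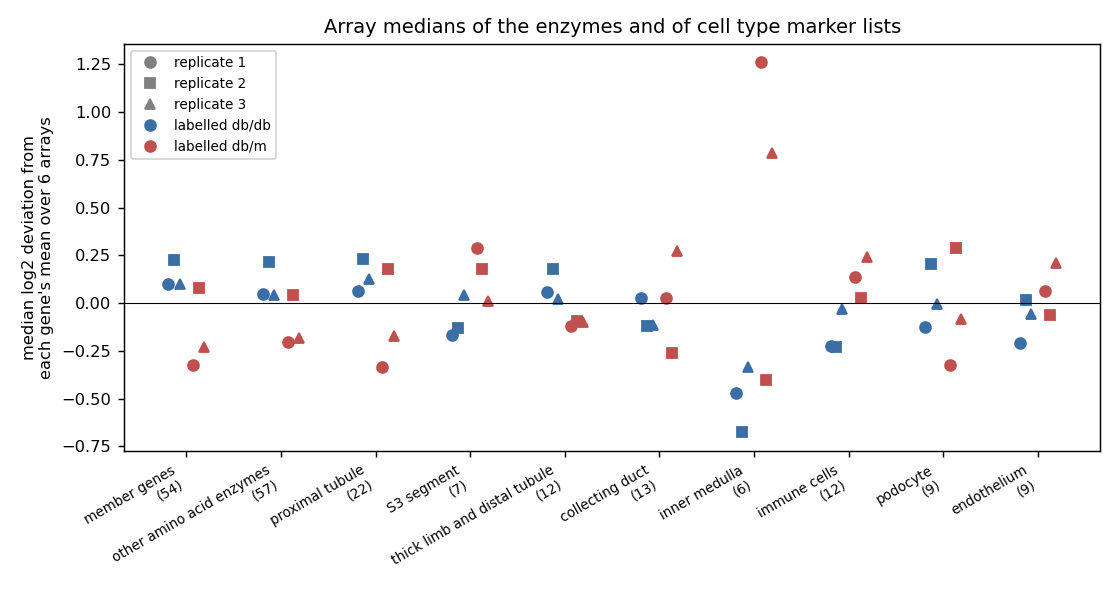
Median deviation (log2) of the genes of a list from their own means over the 6 arrays, shown for each array, with the number of genes tested in brackets. The enzymes (member genes), the other amino acid enzymes and the proximal tubule markers are low on replicates 1 and 3 labelled db/m, the arrays on which the inner medulla genes are high, whereas the S3 segment markers are not low there and the thick limb and distal tubule markers are about as low on replicate 2.

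Other enzymes of amino acid metabolism, 67 genes that are not among the 54, were mostly lower too. Of the 57 tested, 44 (77.2%) were lower and 13 higher, 14 were lower and 0 higher at an unadjusted p under 0.05 (limma), and the median was -0.22. Among them 36 belonged to the brightest quartile, in which 78.2% of genes were lower and 13.5% were lower at that threshold. Over all genes 9.51% were lower and 6.07% higher at that threshold. The share lower by sign was thus close to that of bright genes in general. The array medians of these other enzymes were -0.20, 0.04 and -0.18 in labelled db/m and 0.04, 0.22 and 0.04 in labelled db/db. The 4 with an unadjusted p under 0.01 were Ahcy at -0.71, Gnmt at -0.66, Hoga1 at -0.58 and Afmid at -0.57, each with an adjusted p of 0.240 by limma. Ahcy and Gnmt belong to the methionine cycle, Hoga1 ends hydroxyproline breakdown and Afmid acts before Kynu in tryptophan breakdown. Ahcy read 0.21, 0.11 and -0.29 in labelled db/m and 0.85, 0.78 and 0.52 in labelled db/db, and Gnmt read 2.46, 2.21 and 2.06 against 3.18, 2.81 and 2.73. For both, replicate 2 labelled db/m lay between the other arrays of its group.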

How the data were processed

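Total RNA was labelled with Cy3 and hybridised to 1-colour Agilent arrays, 1 array per mouse. The authors deposited the spot intensity from Agilent Feature Extraction 10.7.1.1, with background subtracted and no scaling between arrays, and a matrix of log2 values. No column held an unmatched sample.

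Control spots and outlier flags were left out, spots of a probe were averaged, and log2 intensities were set relative to the 75th percentile of their array (R 4.3.3, limma 3.58.1). The file of labelled db/m replicate 1 carries 3 significant digits and 71 altered gene names, so names came from another array. A probe was tested if all 3 arrays of either group called it well above background (29890 probes), by lmFit and eBayes with Benjamini-Hochberg adjustment over all of them. The paper screens arrays by fold and p without naming the test. Its general statistics use one-way ANOVA, which for 2 groups is the equal-variance test called here the methods' t-test, run as an alternative. The brightest tested probe stood for a gene. No probe was saturated, and 94 of the 106 enzyme probes were tested. The number of arrays limits the precision. The p-values set a difference against the spread between arrays within a group, in which mouse, slide and piece of cortex are not separated. The procedure was tested on simulated data.

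The enzymes and lists were chosen with earlier results of these data known. Enzymes with an unadjusted p under 0.05 were given array by array, as were pairs of enzymes by their differences and probes that disagreed in sign with an unadjusted p under 0.05. Other amino acid enzymes were named at an unadjusted p under 0.01. Genes picked beyond this to show the split between arrays (Gldc, Prodh2, Gatm, Bcat1, Ass1, Arg2, Akr1b3 and Slc14a2 among them) were chosen after their values were seen.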

Additional observations from a re-analysis of the deposited data

How the results depend on the processing

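The median difference of the enzymes was -0.32 and stayed below 0 under every alternative run. It was -0.15 with quantile normalization and -0.50 with median centring, which also moved the median of all genes from -0.037 to 0.0068 and -0.22. Leaving out 1 array at a time gave -0.46 to -0.23. Without labelled db/m replicates 1 and 3, an alternative added after the data were seen, it was -0.075. The count of enzymes lower at an unadjusted p under 0.05 was 17 and depended on the setting. It was 10 with quantile normalization and with the authors' matrix, 32 with median centring, 11 without the filter on dim probes, 6 with the slide as a block and 2 without labelled db/m replicates 1 and 3. The share of all genes moved as well, from 9.51% to 7.92%, 7.91%, 17.8%, 4.09%, 5.28% and 2.05% in that order. Leaving out 1 array gave 6 (labelled db/m replicate 3 or labelled db/db replicate 2) to 34 (labelled db/m replicate 2), with 9 when replicate 1 labelled db/m was missing and 11 when replicate 1 labelled db/db was, and 3.39% to 12.4% of all genes. Higher enzymes numbered 0, with 1 under median centring, normexp correction or a replicate block, and 0 to 2 when 1 array was left out. No enzyme passed an adjusted p of 0.05 in any of these fits. The single higher enzyme was Bcat1 in each of the 3 settings, at a probe tested only through labelled db/m. With the replicate number as a replicate block, 27 enzymes were lower, as were 12.4% of all genes. Arrays of the same number deviated together with r of 0.35, 0.15 and 0.05, and labelled db/m replicate 2 was as close to labelled db/db replicate 3, so the numbers were not taken to pair the mice. None of the 17 named enzymes changed sign, whereas 8 of the other 37 did under quantile normalization and 17 without labelled db/m replicates 1 and 3. The cause of these shifts was not tested.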
